A study of Mus musculus with 12 samples.

Results

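The RNA of 10 genes that mark liver macrophages was followed over the 4 groups of a mouse liver cancer study, as 10 of the 27179 genes in its count table. They were listed as markers and found by matching the Entrez numbers of the table to mouse symbols. Clec4f, Timd4, Vsig4, Marco and Cd5l mark resident Kupffer cells, Adgre1, Cd68 and Csf1r mark macrophages in general, and Trem2 and Gpnmb mark recruited, tumor-associated and lipid-associated macrophages. All 10 had enough counts in these livers to be tested.

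Bulk RNA-seq was performed on snap-frozen liver from 12 mice, with 1 library per mouse and 3 mice per group. Young adult male mice were kept for a week on chow diet (CD) or on a diet low in protein (LPD), were injected, and stayed on that diet. The injection was either empty vector (Vec, which the labels call WT) or plasmids for human c-MET and ΔN90-β-catenin, a β-catenin that lacks its N-terminal part and is constitutively active. Every group was taken when the oncogene mice on CD reached their end point, so time since injection was shared, while tumor burden was not. Onco stands for c-MET/β-catenin in the group names, which gives CD Vec, CD Onco, LPD Vec and LPD Onco. Hydrodynamic injection into the tail vein (SB-HTVI) brings plasmids into a share of hepatocytes, and the Sleeping Beauty transposase inserts them, so tumors arise from hepatocytes among untransfected liver cells of a host with its own immune cells. The methods of the study name the mice as C57/Bl3, whereas another passage gives a mixed background, so the strain was not settled. Pieces of whole liver were sequenced. The labels give the cell type as hepatocyte, but Clec4f, which among liver cells marks Kupffer cells, reached at least 41.8 CPM in every library. CPM are counts scaled to a common library size, with factors from the trimmed mean of M values (TMM).

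Kupffer cells are the macrophages that sit in the liver sinusoids, where they take up microbes, red cells and debris from portal blood. They are seeded before birth and largely maintain themselves, and contact with sinusoidal endothelium and stellate cells keeps their identity genes on through BMP, Notch and TGF-β signals. When the liver is injured or carries a tumor, monocytes from the blood enter and can turn into macrophages, many of which switch on a lipid-handling and lysosomal program that includes Trem2 and Gpnmb. Such cells carry the general markers but need not carry the resident ones.

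Facts of the whole series bear on the values as follows. Libraries held 19476209 to 31990267 counts. A second header line of the count table gives dataset numbers that fall into 3 runs, and the labels do not say what these runs are. One run holds CD Onco replicates 1 and 2 alone, another holds CD Vec replicates 1 and 2 with LPD Vec replicate 1, and the third holds the other 7 libraries and all 4 groups. CD Vec replicate 2 was the lowest of all 12 libraries for Timd4, Vsig4, Cd5l, Adgre1 and Csf1r. For the 10 members, calls that rest on 1 library or on the runs are given with and without them, and for other genes the calls with a term for the runs in the fit (the run term) are given after the lists.

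The promoters of 8 of the 10 genes were matched in the RefSeq table for GRCm38.p6, and those of Adgre1 and Csf1r were not. For 4 of them the 250 bases before the annotated start are printed, because Trem2, Cd68 and Gpnmb are the members whose RNA changed with the oncogenes and Clec4f is a resident marker that was not called. Each is written 5′ to 3′ in the direction of the gene, and capitals mark the motifs that were found on either strand.
Trem2 promoter, chr17:48346151-48346400, plus strand: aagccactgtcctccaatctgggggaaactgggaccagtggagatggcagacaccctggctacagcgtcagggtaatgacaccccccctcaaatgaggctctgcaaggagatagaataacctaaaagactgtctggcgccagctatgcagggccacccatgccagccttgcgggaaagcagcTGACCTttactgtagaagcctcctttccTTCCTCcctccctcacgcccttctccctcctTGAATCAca
Cd68 promoter, chr11:69666171-69666420, minus strand: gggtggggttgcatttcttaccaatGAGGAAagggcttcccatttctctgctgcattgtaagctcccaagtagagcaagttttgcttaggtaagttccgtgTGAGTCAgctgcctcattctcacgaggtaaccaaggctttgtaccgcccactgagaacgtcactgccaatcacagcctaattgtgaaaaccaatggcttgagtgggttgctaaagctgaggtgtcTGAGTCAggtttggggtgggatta
Gpnmb promoter, chr6:49036268-49036517, plus strand: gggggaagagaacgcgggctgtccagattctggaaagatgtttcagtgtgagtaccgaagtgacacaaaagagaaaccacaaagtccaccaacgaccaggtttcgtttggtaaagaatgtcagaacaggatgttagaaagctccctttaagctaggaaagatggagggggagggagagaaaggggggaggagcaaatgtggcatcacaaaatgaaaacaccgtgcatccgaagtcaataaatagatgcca
Clec4f promoter, chr6:83656117-83656366, minus strand: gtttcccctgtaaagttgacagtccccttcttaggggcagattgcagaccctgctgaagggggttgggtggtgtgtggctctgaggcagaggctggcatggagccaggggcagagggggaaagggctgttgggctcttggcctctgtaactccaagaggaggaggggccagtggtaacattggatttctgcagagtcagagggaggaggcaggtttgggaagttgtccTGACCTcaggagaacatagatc

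Motifs were searched on both strands of these windows. GAGGAA, the core bound by PU.1, the master regulator of macrophages, occurred in 5 of the 8 promoters (Vsig4, Marco, Cd5l, Cd68 and Trem2), against 23.3% of the 32851 promoters in the table. In the Trem2 window it reads as TTCCTC, on the opposite strand. TGANTCA, the site of AP-1, occurred in Cd68 (2 times, as TGAGTCA) and in Trem2 (once, as TGAATCA), that is in 2 of 8 against 6.75% of all promoters. AGGTCA, the site of 1 partner in a nuclear receptor pair such as LXRα, occurred in 3 of 8 (Clec4f, Timd4 and Trem2) against 14% of all. In the Clec4f and Trem2 windows it reads as TGACCT, and it overlapped no other motif. TGCTGAC, part of a MAF site, occurred in 1 of 8 (Timd4) against 3.81%. CACGTG, the E-box, which is also the core of the lysosomal CLEAR element read by the MITF family, occurred in 0 of 8, against 6.02%. The Gpnmb window held none of the motifs searched. A match of letters is a description of the sequence and not of binding.

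**Figure D1:**
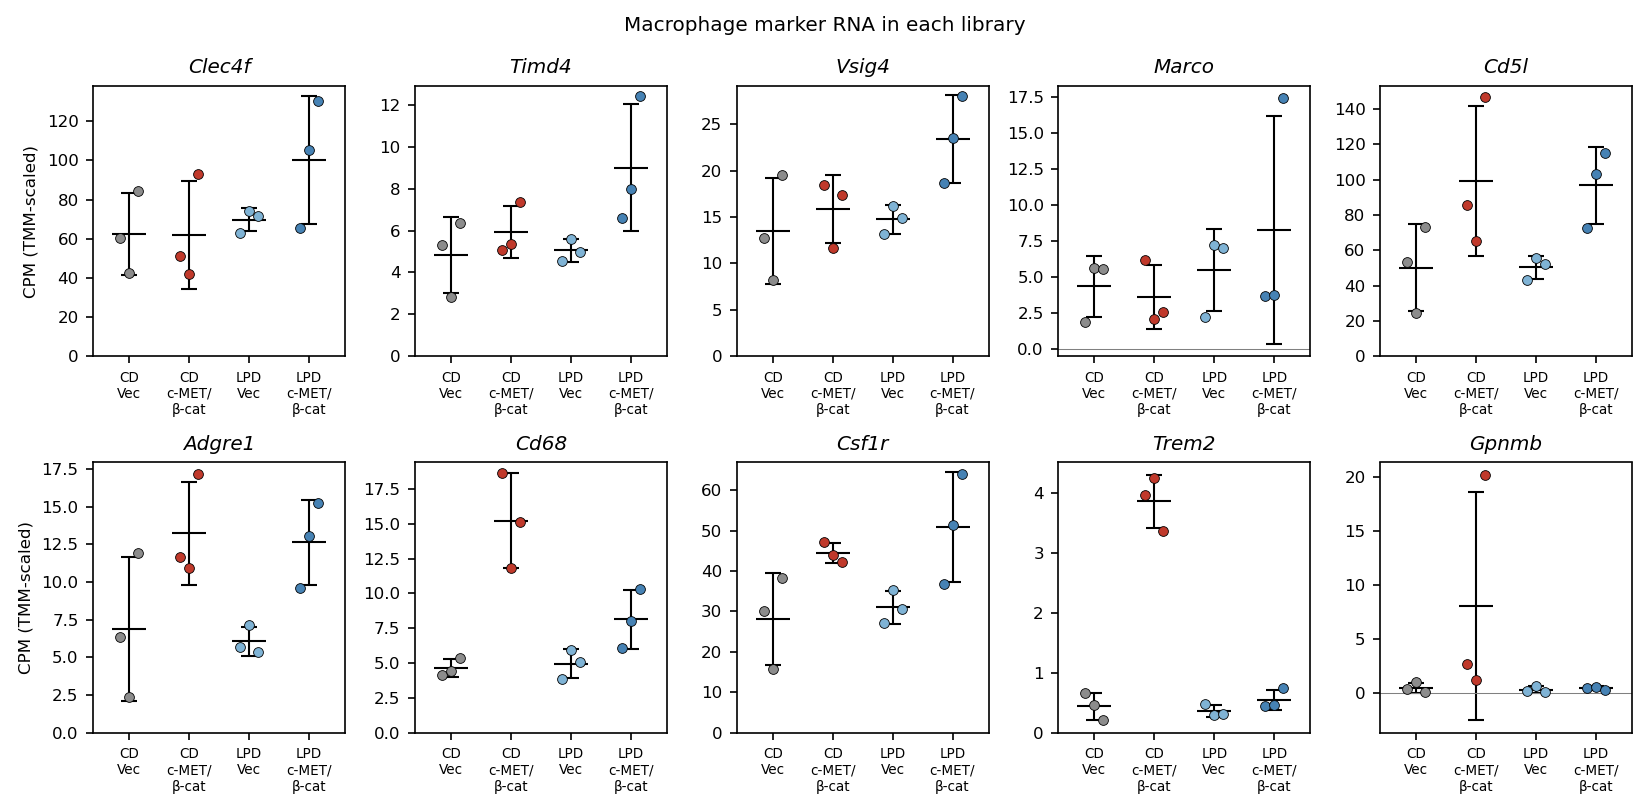
RNA of the 10 markers in each of the 12 libraries, in TMM-scaled CPM on a linear axis that differs between panels. Points are mice, the wide tick is the group mean and the bar is 1 SD. The 3 red points of Trem2 and of Cd68 lie above all other groups, 1 red point at 20.2 CPM sets the Gpnmb mean, and the 5 resident markers overlap between CD Vec and CD Onco.

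Resident Kupffer cell markers were measured first. Per kilobase of transcript, Clec4f and Cd5l were the most abundant of the 10 in CD Vec livers, at 25.3 and 24.7 CPM per kb, followed by Vsig4 at 9.44, Csf1r at 5.97 and Cd68 at 3.77 CPM per kb. Marco was at 2.26, Timd4 at 2.22 and Adgre1 at 2.13 CPM per kb. Trem2 and Gpnmb were lowest, at 0.406 and 0.124 CPM per kb. Levels of different genes can be set side by side on this scale only, and a level in bulk liver does not tell fewer cells of a type from less RNA per cell.

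Clec4f (chr6:83644542-83656116), a C-type lectin that marks Kupffer cells, was at 60.2, 42.7 and 84.4 CPM in CD Vec replicates 1 to 3. It was at 50.9, 41.8 and 93.2 CPM in CD Onco, at 63.0, 74.1 and 71.7 CPM in LPD Vec, and at 65.3, 106 and 130.1 CPM in LPD Onco. The groups overlapped in every comparison, and CD Onco replicate 3 lay far above the other 2 mice of its group. On CD the oncogenes left Clec4f at a log2 fold change of -0.01, with a 95% interval from -0.65 to 0.63 and an adjusted p of 0.984. On LPD the value was 0.53 (SE 0.33, adjusted p = 0.644). Between diets in oncogene livers Clec4f differed by 0.70 (SE 0.33, adjusted p = 0.160), and without CD Onco replicate 3 this was 1.12 (adjusted p = 0.0284), which passed.

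Timd4 (chr11:46810786-46844333), a receptor for phosphatidylserine on dying cells that is kept by long-lived Kupffer cells, ranged from 2.84 to 6.35 CPM in CD Vec and from 5.08 to 7.38 CPM in CD Onco. In LPD Vec it was at 4.56, 5.62 and 4.97 CPM, and in LPD Onco at 6.60, 8.0 and 12.4 CPM. Only on LPD did the oncogene libraries all lie above the Vec libraries. The log2 fold change was 0.29 on CD (SE 0.31, adjusted p = 0.489) and 0.83 on LPD (SE 0.31, adjusted p = 0.296), and the interaction was 0.54 (SE 0.43, adjusted p = 0.471).

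Vsig4 (chrX:96247201-96293438), the complement receptor CRIg, had the same order of group means as Timd4. It was at 12.7, 8.24 and 19.6 CPM in CD Vec and at 18.5, 11.7 and 17.4 CPM in CD Onco, which overlapped. It was at 13.1, 16.2 and 14.9 CPM in LPD Vec and at 18.6, 23.5 and 28 CPM in LPD Onco. The last group lay above both LPD Vec and CD Onco without overlap, by log2 fold changes of 0.66 (SE 0.28, adjusted p = 0.382) and 0.56 (SE 0.28, adjusted p = 0.178).

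Cd5l (chr3:87357881-87371074), a secreted scavenger protein also named AIM, had the largest fold change of the 5 resident markers on each diet. It was at 53.4, 24.3 and 72.9 CPM in CD Vec and at 85.3, 65.1 and 147 CPM in CD Onco, where the lowest oncogene library lay below the highest Vec library. LPD Vec libraries were at 43.2, 55.4 and 52.2 CPM and LPD Onco libraries at 72.5, 103 and 115 CPM, with no overlap. The log2 fold change was 0.98 on CD (SE 0.37, adjusted p = 0.0616) and 0.94 on LPD (SE 0.37, adjusted p = 0.348), so the 2 diets gave nearly the same value and neither passed. On CD it passed without CD Vec replicate 3 (1.35, adjusted p = 0.0245), without CD Onco replicate 2 (1.21, adjusted p = 0.0352), and under DESeq2 (0.98, adjusted p = 0.0250). Between diets in oncogene livers Cd5l differed by -0.03 (95% interval -0.76 to 0.69).

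Marco (chr1:120474538-120505024), a scavenger receptor for bacteria, had the largest standard errors of the 5 resident markers. CD Vec libraries were at 1.89, 5.63 and 5.52 CPM and CD Onco libraries at 6.15, 2.08 and 2.58 CPM. LPD Vec libraries were at 2.21, 7.22 and 7.03 CPM and LPD Onco libraries at 3.67, 3.72 and 17.4 CPM. Every pair of groups overlapped, and the standard errors of its log2 fold changes (0.70 to 0.71) exceeded the differences on CD (-0.25) and on LPD (0.59). Marco differed between diets in oncogene livers by 1.18 (SE 0.70, adjusted p = 0.268).

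Of the 5 resident markers, 0 passed in any of the 5 comparisons by edgeR (0.308% to 35.4% of all genes did). At an unadjusted p under 0.05, 1 passed on CD and 3 on LPD, where 45.1% and 11.1% of all genes did, and DESeq2 called 1 on CD (Cd5l). Their median log2 fold change was 0.23 on CD, 0.66 on LPD and 0.60 between diets in oncogene livers, where the medians over all 13947 genes tested were -0.01, 0.01 and -0.01. Scaling by total counts only moved the CD median over all genes to 0.28 and that of the resident markers to 0.50. Clec4f and Marco then stood at 0.26 and 0.03 on CD, both below the median of all genes.

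Of the 3 general macrophage markers, Cd68 was called on CD, and Adgre1 and Csf1r were not. Cd68 (chr11:69664213-69666170), a glycoprotein of macrophage lysosomes, was at 4.13, 4.43 and 5.36 CPM in CD Vec and at 18.7, 11.8 and 15.1 CPM in CD Onco. In LPD Vec it was at 3.89, 5.91 and 5.08 CPM, and in LPD Onco at 6.11, 8.0 and 10.3 CPM. The 3 oncogene libraries on CD lay above those of every other group, and the 3 oncogene libraries on LPD lay between them and the Vec libraries. Cd68 rose 3.28-fold on CD (1.71 on the log2 scale, SE 0.25, adjusted p = 0.000349). On LPD it was 0.71 (SE 0.24, adjusted p = 0.248). It was lower on LPD than on CD in oncogene livers by -0.90 (SE 0.24, adjusted p = 0.0204). The interaction was -1.0 (SE 0.35, adjusted p = 0.0914) and passed under DESeq2 only (adjusted p = 0.0470).

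The rise of Cd68 on CD passed whichever of the 12 libraries was left out (adjusted p from 0.000395 to 0.00219). Its difference between the diets did not pass without CD Onco replicate 1 (-0.73, adjusted p = 0.0705), without LPD Onco replicate 1 (-0.73, adjusted p = 0.0826) or replicate 2 (-0.88, adjusted p = 0.0649), or with a term for the header runs (-0.89, adjusted p = 0.151). Within the run that holds all groups, mean log2 CPM differed by 1.48 between the single oncogene and the single Vec library on CD, and by -0.92 between diets in oncogene livers.

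Adgre1 (chr17:57358581-57483529) encodes a surface receptor that is widely used to stain mouse macrophages. It was at 6.37, 2.39 and 11.9 CPM in CD Vec, with replicate 2 far below replicate 3, and at 11.6, 10.9 and 17.2 CPM in CD Onco. LPD Vec was at 5.66, 7.18 and 5.38 CPM and LPD Onco at 9.58, 13.1 and 15.2 CPM. The oncogene groups were at almost the same level on both diets, and they separated from Vec on LPD only, where the Vec mice were close together. The log2 fold change was 0.94 on CD (SE 0.42, adjusted p = 0.105) and 1.05 on LPD (SE 0.42, adjusted p = 0.360), with an interaction of 0.12 (95% interval -1.05 to 1.28). On CD it was 1.59 and passed (adjusted p = 0.00998) without CD Vec replicate 3.

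Csf1r (chr18:61105572-61131139), the receptor for the macrophage growth factors CSF1 and IL-34, was at 30.2, 15.7 and 38.2 CPM in CD Vec and at 47.1, 44.0 and 42.1 CPM in CD Onco, with no overlap. It was at 27.2, 35.4 and 30.5 CPM in LPD Vec and at 36.8, 51.4 and 64.1 CPM in LPD Onco, again with no overlap. The log2 fold change was 0.66 on CD (SE 0.27, adjusted p = 0.0800) and 0.71 on LPD (SE 0.27, adjusted p = 0.326), and neither passed. The interaction was 0.05 (95% interval -0.71 to 0.80). The value on CD passed without CD Vec replicate 3 (0.95, adjusted p = 0.0241), and it was 0.29 with the run term (adjusted p = 0.749). Other annotated genes overlap Adgre1 and Csf1r, and the strand setting of the counting is not given in the sources used here, so a share of their counts could belong to these neighbours.

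Trem2 and Gpnmb had the largest changes. Trem2 (chr17:48346401-48352276), a lipid-sensing receptor of macrophages that signals through Tyrobp, was at 0.662, 0.455 and 0.208 CPM in CD Vec, or 4 to 13 counts. It was at 3.96, 4.24 and 3.37 CPM in CD Onco, or 90 to 137 counts. In LPD Vec it was at 0.480, 0.296 and 0.308 CPM, and in LPD Onco at 0.440, 0.456 and 0.743 CPM, or 9 to 17 counts. The oncogene livers on CD thus stood apart from all 9 other libraries, and the oncogene livers on LPD overlapped with both Vec groups.

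Trem2 rose 8.62-fold on CD (3.11 on the log2 scale, SE 0.38, adjusted p = 0.000121). On LPD the value was 0.59 (SE 0.42, adjusted p = 0.707). It fell by 2.81 on the log2 scale between CD and LPD in oncogene livers (SE 0.36, adjusted p = 0.000681). The interaction was -2.52 (SE 0.57, adjusted p = 0.0222), so the effect of the oncogenes differed between the diets. The rise on CD and the difference between diets passed in all 12 fits without 1 library and with the run term (3.66 and -2.62, adjusted p = 0.00484 and 0.00834). The interaction was between -2.95 and -2.18 in those 12 fits. It did not pass without LPD Vec replicate 1 (-2.27, adjusted p = 0.0606) or 2 (-2.65, adjusted p = 0.0518), without LPD Onco replicate 1 (-2.39, adjusted p = 0.0527), or with the run term (-2.69, adjusted p = 0.0679).

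Gpnmb (chr6:49036518-49058182), a lysosomal membrane glycoprotein of lipid-laden macrophages, was at 0.357, 0.967 and 0.0521 CPM in CD Vec and at 2.63, 1.18 and 20.2 CPM in CD Onco. It was at 0.144, 0.634 and 0.051 CPM in LPD Vec and at 0.440, 0.561 and 0.262 CPM in LPD Onco. Replicate 3 of the CD oncogene group held 540 counts and the other 2 held 29 and 91, and no other library exceeded 17. Gpnmb rose on CD, by 4.14 on the log2 scale (17.6-fold, SE 1.13, adjusted p = 0.0148). Without that replicate the value was 2.07 (adjusted p = 0.0759) and did not pass, although replicates 1 and 2 still lay above every Vec library. It was lower on LPD than on CD in oncogene livers by -4.21 (SE 1.11, adjusted p = 0.0211). It did not pass when CD Onco replicate 3 was left out (-2.16, adjusted p = 0.0866) or when LPD Onco replicate 1, 2 or 3 was (adjusted p = 0.0662, 0.0578 and 0.0776), nor with no filter on low counts (adjusted p = 0.0509) or with the replicate number as a block (-3.98, adjusted p = 0.0542). The interaction was -3.59 (SE 1.77, adjusted p = 0.230).

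Counted over the 10 members, the oncogenes on CD raised 3 (Cd68, Trem2 and Gpnmb) and lowered 0. Over all genes tested, 18.7% were called higher on CD and 35.4% in either direction. On CD 4 members (Cd68, Csf1r, Trem2 and Gpnmb) lay above Vec without overlap, as 22.2% of all genes did. On LPD 0 of 10 were called by edgeR, where 1.32% of all genes were, and DESeq2 called 0. At an unadjusted p under 0.05, 6 of 10 passed on LPD (Timd4, Vsig4, Cd5l, Adgre1, Cd68 and Csf1r), beside 1545 of all 13947 genes, and the same 6 lay above LPD Vec without overlap (13.5% of all genes did). Fitting the 2 LPD groups alone called 3 of them, Vsig4 (0.67, adjusted p = 0.0499), Cd5l (0.95, adjusted p = 0.0341) and Adgre1 (1.06, adjusted p = 0.0243), in a fit that called 3.8% of the 13299 genes it tested.

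In Vec livers the LPD and CD libraries overlapped for all 10 markers, where 17.2% of all genes lay apart without overlap. By edgeR or DESeq2 0 of 10 were called between the diets, and 0 had an unadjusted p under 0.05 (1377 genes did). As edgeR called 0.308% of all genes, nothing is read from 0 calls among 10. Log2 fold changes lay between -0.63 and 0.34. Trem2 and Gpnmb held at most 17 counts in any Vec library, and the Gpnmb interval ran from -3.29 to 2.03. In a fit of the Vec groups alone, 8 of the 10 passed the filter on low counts. In oncogene livers 3 of 10 were lower on LPD (Cd68, Trem2 and Gpnmb), where 11.3% of all genes were called lower and 20% in either direction, the same 3 lay below CD without overlap (20.1% of all genes did), and 1 (Vsig4) lay above (19.2% did). The interaction called 1 of 10 (Trem2), where 8.91% of all genes were called and 4.42% with a lower value. The comparisons within CD and within oncogene livers have the CD Onco libraries in common, and finding the same 3 genes in both is not separate evidence.

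**Figure D2:**
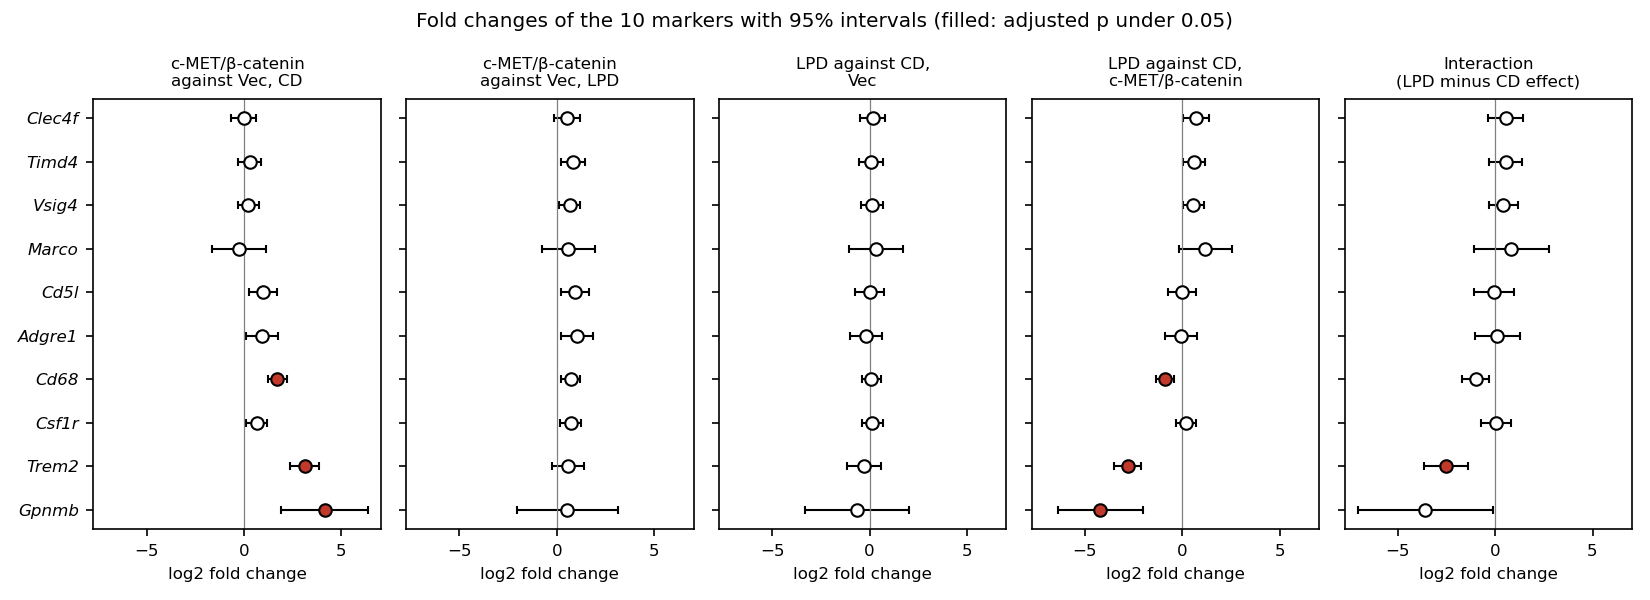
Log2 fold changes of the 10 markers in the 4 comparisons and for the interaction, with intervals of ± 1.96 SE from the edgeR fit over all 12 libraries. These intervals, titled 95%, are narrower than the F test implies. That of Gpnmb for the interaction excludes 0 at an unadjusted p of 0.0678 (F test). Filled points passed at an adjusted p under 0.05. Cd68, Trem2 and Gpnmb are filled for the oncogenes on CD and for diet in oncogene livers, Trem2 alone for the interaction, and no resident marker is filled in any panel.

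To ask whether the markers kept their proportions to each other, each was expressed relative to Csf1r inside the same library, which needs no scaling between libraries. Trem2 stood at 2.28, 3.06 and 0.613 counts per 100 Csf1r counts in CD Vec and at 8.43, 9.69 and 8.04 in CD Onco. It stood at 1.85, 0.896 and 1.09 in LPD Vec and at 1.26, 0.921 and 1.19 in LPD Onco. The CD oncogene livers held more Trem2 per Csf1r than every other library. Between oncogene and Vec livers the log2 ratio differed by 2.42 on CD and by -0.13 on LPD, or 1.15 over both diets (exact permutation p = 0.0600, adjusted p = 0.210). Between LPD and CD it differed by -0.41 in Vec, where the groups overlapped, and by -2.96 in oncogene livers, or -1.69 over both (exact permutation p = 0.0350, adjusted p = 0.210). Neither average passed after adjustment. These are two-sided exact permutation tests with labels exchanged within each stratum, whose smallest possible p is 0.005 over 400 arrangements, and 14 of them were run.

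Clec4f relative to Csf1r stood at 200, 271 and 221 counts per 100 Csf1r counts in CD Vec and at 108, 95.1 and 221 in CD Onco. It stood at 232, 210.0 and 235 in LPD Vec and at 177, 205 and 203 in LPD Onco. On CD, oncogene replicates 1 and 2 lay far below Vec and replicate 3 did not. Replicates 1 and 2 are the libraries that form a run of their own, and in the mixed run the ratio was 221 in both CD Onco replicate 3 and CD Vec replicate 3, so on CD the difference cannot be told apart from the run. The log2 ratio differed with the oncogenes by -0.50 over both diets (exact permutation p = 0.0250, adjusted p = 0.210), by -0.80 on CD and by -0.21 on LPD. Vsig4 gave -0.25 (-0.46 on CD, -0.03 on LPD, exact permutation p = 0.0600) and Timd4 -0.15 (-0.40 on CD, 0.10 on LPD, exact permutation p = 0.335). Cd5l gave 0.26 (0.28 on CD, 0.24 on LPD, exact permutation p = 0.160). None of the 14 tests passed after adjustment. With Adgre1 in place of Csf1r, the differences of Clec4f (-0.90) and Vsig4 (-0.65) passed (adjusted p = 0.0350 each in the exact permutation test), and that of Cd5l changed sign (-0.13). These values rest on the same libraries and runs.

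**Figure D3:**
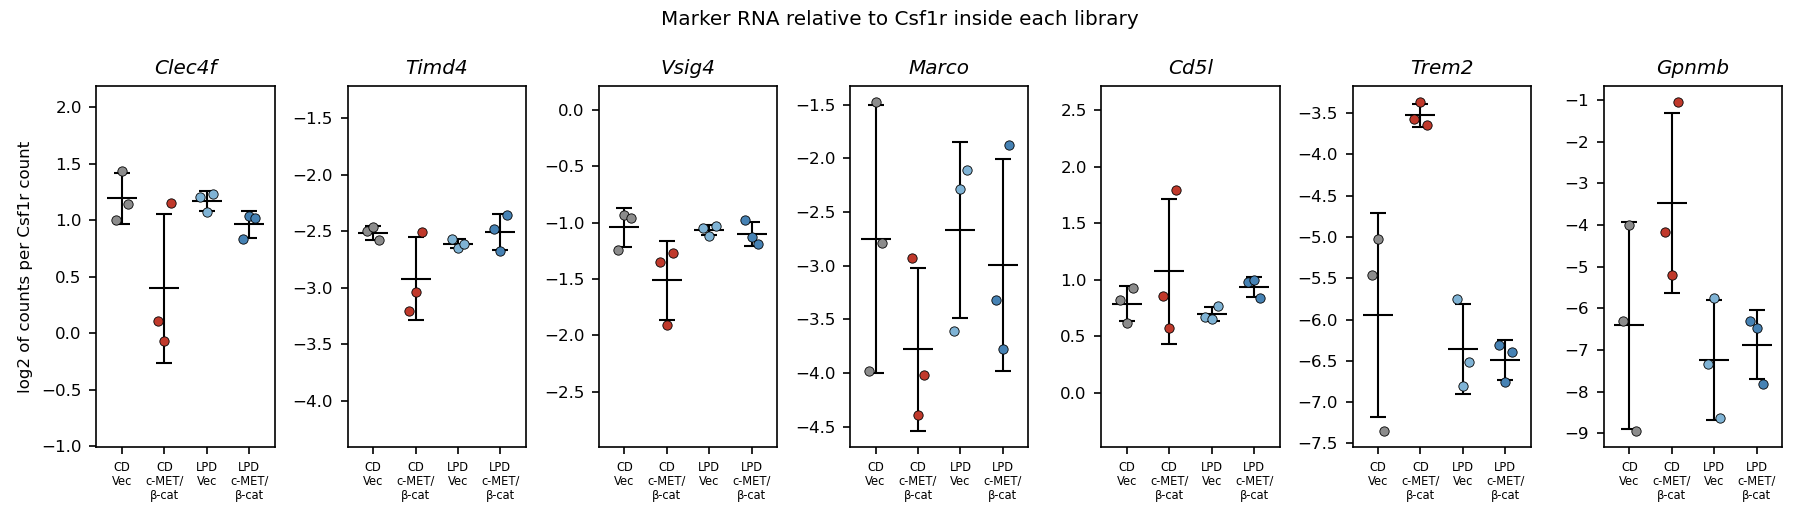
Counts of 7 markers per Csf1r count in each library, on a log2 scale with a prior count of 0.5, with the group mean and 1 SD. The span of the axis differs between panels. Trem2 of the CD oncogene livers lies above all other libraries (at least -3.64, against at most -5.03 elsewhere), and Clec4f of 2 of those 3 livers lies at 0.11 and -0.07, below all others.

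Genes around these markers were counted by list. Of 10 other genes of Kupffer cell identity, 2 rose on CD (Il18bp and Folr2) and 3 fell (Id3, Slc40a1 and Nr1h3), with a median of -0.16, where 18.7% of all genes were called higher and 35.4% in either direction. Under total counts only 3 rose, 0 fell and the median was 0.11, and with the run term 1 rose and 0 fell. In oncogene livers 2 were higher on LPD than on CD, beside 1208 of all 13947 genes. They were Id3 (0.96, adjusted p = 0.0420, not passing in 7 of the 12 fits without 1 library or with the run term) and Slc40a1 (1.15, adjusted p = 0.00144, not passing with the run term). Il18bp, which binds and blocks IL-18, rose from 6.69 ± 0.627 to 15.4 ± 4.72 CPM (SD, n = 3), or by 1.20 on the log2 scale (SE 0.22, adjusted p = 0.00126). Id3, a transcription factor needed for Kupffer cell development, fell from 59.4 ± 27.5 to 28.7 ± 6.11 CPM (-1.05, SE 0.30, adjusted p = 0.0179), and the fall did not pass without CD Vec replicate 2 (-0.65, adjusted p = 0.0714) or CD Onco replicate 3 (-0.91, adjusted p = 0.0603). Spic, a factor of iron-recycling macrophages, was at 0.88 (adjusted p = 0.0744). Folr2 (0.82), Slc40a1 (-0.73), which encodes the iron exporter ferroportin, and Nr1h3 (-0.52), which encodes LXRα, were named after their values were seen.

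Of 8 tested signals of the niche that holds Kupffer cells (Csf2 and Csf3 had too few counts), 3 fell on CD, all BMP ligands, and 1 rose, where 35.4% of all genes were called and 2330 of 13947 were lower. Of 7 markers of sinusoidal endothelium, 2 fell in the same comparison (Clec4g at -1.09 and Oit3 at -1.03), with a list median of 0.07. Of 7 stellate markers, 3 fell, among them Lrat at -1.42, and 2 rose (Acta2 and Reln). The part of these cells in the values of the ligands was not tested. Bmp2 fell from 16.3 ± 1.54 to 5.25 ± 1.48 CPM (-1.63, SE 0.26, adjusted p = 0.000553) and Gdf2, which encodes BMP9, from 18.7 ± 1.66 to 7.05 ± 1.99 CPM (-1.40, SE 0.22, adjusted p = 0.000637). Bmp10 fell from 1.02 ± 0.693 to 0.185 ± 0.123 CPM (-2.38, SE 0.67, adjusted p = 0.0157), with overlap between the groups, and did not pass without CD Vec replicate 3 (-2.0, adjusted p = 0.0596). Without CD Onco replicate 1 it was -3.07. On LPD the log2 fold changes of Bmp2, Gdf2 and Bmp10 were 0.00, -0.17 and -0.16, and none passed. Bmp2 and Gdf2 were higher on LPD than on CD in oncogene livers (1.69 and 1.16, adjusted p = 0.00135 and 0.00464), and their interactions passed (1.64 and 1.22, adjusted p = 0.0185 and 0.0337). Neither interaction passed with the run term (2.17 and 1.59, adjusted p = 0.0614 and 0.103). That of Bmp2 did not pass without LPD Onco replicate 3 (1.48), nor that of Gdf2 without CD Vec replicate 1 or 3, CD Onco replicate 2, LPD Vec replicate 2 or 3, or LPD Onco replicate 3 (1.02 to 1.19). Tgfb1, named after its values were seen, rose by 0.84. Csf1 (0.27) and Il34 (-0.50), the ligands of the receptor encoded by Csf1r, were not called on CD and were looked up because of that pairing.

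Of 15 pan-macrophage and myeloid genes, 13 rose on CD and 1 fell, with a median of 1.25. The shares over all genes were 18.7% higher and 35.4% in either direction. Lyz2, the lysozyme of myeloid cells, rose from 28.3 ± 7.59 to 108 ± 15.8 CPM (1.93, SE 0.22, adjusted p = 7.55e-05). Itgam, which encodes CD11b of monocytes and recruited macrophages, rose from 1.28 ± 0.547 to 5.77 ± 3.79 CPM (2.17, SE 0.48, adjusted p = 0.00414, and 1.51 without CD Onco replicate 1), and Fcgr1, the high-affinity Fc receptor CD64, from 1.51 ± 0.559 to 5.56 ± 1.36 CPM (1.88, SE 0.31, adjusted p = 0.000715). On LPD 1 of the 15 was called (Mertk, 1.05, adjusted p = 0.0196, named after its values were seen), where 1.32% of all genes were. Of the 15, 12 had an unadjusted p under 0.05 (11.1% of all genes did), DESeq2 called 9, and the fits without 1 library called 0 to 5. The median was 0.85. Between diets in oncogene livers 3 were lower (Lyz2, Fcgr1 and Itgam) and 1 was higher, where 11.3% of all genes were called lower. The median was -0.36, and the fits without 1 library called 1 to 4 lower.

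Of 11 genes of the lipid-associated program, 10 rose on CD (18.7% of all genes did) and 0 fell, with a median of 2.87. Lpl, lipoprotein lipase, rose from 9.34 ± 1.49 to 154 ± 26.4 CPM (4.04, SE 0.19, adjusted p = 1.14e-06). Mmp12, the macrophage elastase, rose from 0.680 ± 0.202 to 11.2 ± 4.12 CPM (4.04, SE 0.53, adjusted p = 0.000181), and the endosomal tetraspanin Cd63 from 5.22 ± 1.19 to 72.6 ± 17.4 CPM (3.79, SE 0.32, adjusted p = 1.96e-05). On LPD 2 were called (1.32% of all genes were), with a median of 0.45, and Lpl rose by 1.15 (SE 0.18, adjusted p = 0.00824). Between diets in oncogene livers 8 of 11 were lower (11.3% of all genes were), with a median of -2.10. For the interaction 8 of 11 were called below 0 (4.42% of all genes were), among them Lpl (-2.89), Mmp12 (-3.12) and Cd63 (-3.18). Lpl and Cd63 are not made by macrophages alone, and bulk RNA does not give the cell that made them.

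Of 9 genes of recruited monocytes, 8 rose on CD (18.7% of all genes did), with a median of 2.45. Ccl2, the chemokine that draws monocytes in, rose from 0.229 ± 0.0742 to 4.81 ± 2.55 CPM (4.36, SE 0.79, adjusted p = 0.00133). F13a1, the factor XIII chain of monocytes, rose from 0.296 ± 0.186 to 4.58 ± 2.22 CPM (3.92, SE 0.51, adjusted p = 0.000184), and Chil3, a lectin of alternatively activated macrophages and neutrophils, from 0.121 ± 0.168 to 2.79 ± 3.07 CPM (4.46, SE 0.97, adjusted p = 0.00416). Chil3 was at 3.0 without CD Onco replicate 1 and at 6.47 without CD Vec replicate 3, and F13a1 at 4.56 without CD Vec replicate 1, each still passing. The 9 genes summed to 5.51 to 9.06 CPM in CD Vec, 29.3 to 46.4 in CD Onco, 6.09 to 10.4 in LPD Vec and 11.1 to 13.9 in LPD Onco. On LPD 0 of 9 were called by edgeR (1.32% of all genes were) and 2 had an unadjusted p under 0.05 (11.1% of all genes did). In oncogene livers 7 of 9 were lower on LPD than on CD (11.3% of all genes were), with a median of -1.66.

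Of 10 genes for the uptake of dying cells and lipoproteins, 6 rose on CD and 1 fell (Apoe, -0.74, named after its values were seen). Among all genes 18.7% were called higher and 35.4% in either direction. Mfge8, a bridge to phosphatidylserine, rose by 1.96 (SE 0.22, adjusted p = 8.43e-05), Gas6, the ligand of the TAM receptors, by 1.14 (SE 0.36, adjusted p = 0.0295), and Axl, one of these receptors, by 1.08 (SE 0.24, adjusted p = 0.00498). The rise of Gas6 did not pass without CD Vec replicate 2 (0.89, adjusted p = 0.101) or 3 (1.08, adjusted p = 0.0787), or without CD Onco replicate 1, 2 or 3 (1.19, 1.14 and 1.07). Of 6 cytokine and activation genes tested, 4 rose on CD, beside 18.7% of all genes. Il1rn, the IL-1 receptor antagonist, rose from 2.13 ± 0.566 to 9.82 ± 0.595 CPM (2.20, SE 0.33, adjusted p = 0.000438). Retnla, a gene of alternatively activated macrophages, reached 1.57 to 3.70 CPM in CD Onco, had at most 2 counts in any Vec library, and had 0 counts in all LPD Onco libraries. Against a floor of 3 counts per library it was at least 23.0-fold lower on LPD than on CD in oncogene livers. Nos2 rose on CD (3.56, SE 0.89, adjusted p = 0.00877, and 4.47 without CD Vec replicate 2). It was at 0.490 to 0.982 CPM in CD Onco and had at most 4 counts in any other library. Il6, Il10 and Tnf had too few counts to be tested.

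Of 10 lysosomal and MITF family genes, 3 rose on CD (Hexa, Npc2 and Tfe3) and 2 fell, with a median of 0.10. With 18.7% of all genes called higher and 35.4% in either direction, nothing is read from these counts. Hexa, a lysosomal hexosaminidase subunit, rose from 43.2 ± 4.43 to 94.6 ± 16.8 CPM (1.13, SE 0.20, adjusted p = 0.00110), and Npc2, a lysosomal sterol carrier, by 0.67 (SE 0.14, adjusted p = 0.00382). Tfe3, a transcription factor of lysosomal genes, rose by 0.60 (SE 0.11, adjusted p = 0.00161). The 2 that fell, Lamp1 (-0.42) and Acp5 (-0.53), were named after their values were seen, and under total counts only 5 rose and 0 fell.

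**Figure D4:**
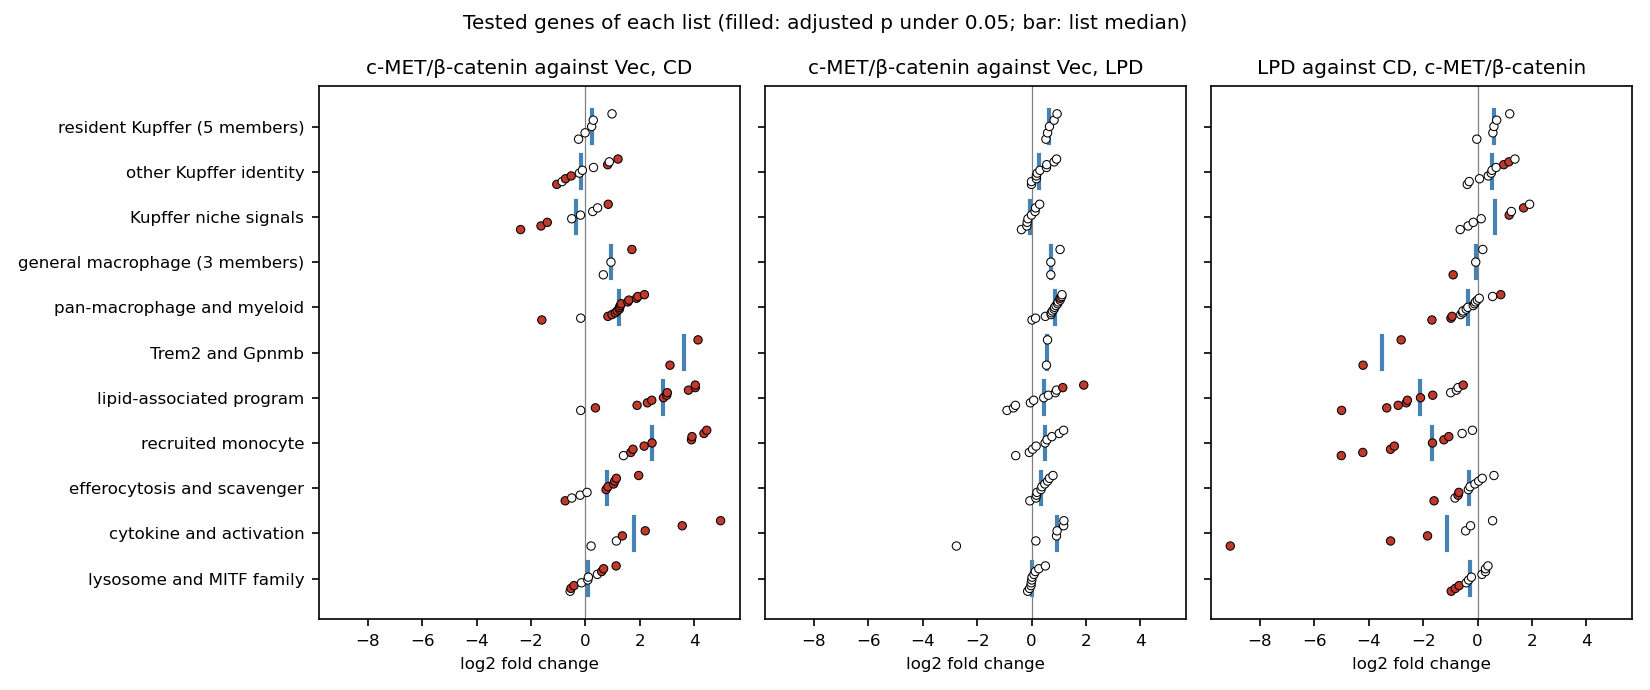
Log2 fold changes of every tested gene of 11 lists for the oncogenes on CD, the oncogenes on LPD, and diet in oncogene livers. Points are genes, filled where the adjusted p was under 0.05, and the vertical bar is the list median. The lipid-associated and monocyte lists lie at medians of 2.87 and 2.45 on CD, at 0.45 and 0.50 on LPD, and at -2.10 and -1.66 between the diets, while the resident list lies at 0.23, 0.66 and 0.60. The point at -9.09 is Retnla, whose fitted value rests on a group with no counts.

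Markers of other liver cells were counted in the same way, beside the 35.4% of all genes called on CD, and nothing is read from counts near that share. For neutrophils, 2 of 3 tested genes rose on CD, S100a8 (2.20, SE 0.53, adjusted p = 0.00701) and S100a9 (1.95, SE 0.43, adjusted p = 0.00435, and 1.28 without CD Onco replicate 1). Of these 0 passed with the run term (list median 0.81). Csf3r was at 0.12 (adjusted p = 0.839), and at -0.32 with the run term. The 6 genes of the list summed to 3.57 to 5.42 CPM in CD Vec, 6.96 to 18.9 in CD Onco, 3.21 to 5.49 in LPD Vec and 2.98 to 6.12 in LPD Onco, and Ly6g and Retnlg were at 0 in at least 1 library. For dendritic cells 0 of 5 were called on CD and 1 on LPD (Xcr1, 1.78, adjusted p = 0.0480, which passed in 0 of the 12 fits without 1 library, with adjusted p from 0.0529 to 0.220, and not with the run term), with Cd209a at 1.28 and Siglech at -0.18 on CD. Their sums were 5.69 to 7.39, 6.01 to 8.24, 4.72 to 6.53 and 6.65 to 10.4 CPM in the same order of groups.

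For lymphocytes 1 of 8 rose on CD (Cd8a, at most 2 counts in any CD Vec library and 1.01 to 1.87 CPM in CD Onco, adjusted p = 0.00130) and 1 fell (Cd4, -1.60, adjusted p = 0.0493, overlapping groups, and not passing without CD Vec replicate 3, where it was -1.15, nor in 8 of the other 11 fits without 1 library). The 9 genes summed to 3.72 to 5.47, 3.35 to 5.14, 3.31 to 5.90 and 5.23 to 7.96 CPM. For sinusoidal endothelium 2 of 7 fell on CD, Clec4g (-1.09, SE 0.18, adjusted p = 0.000695) and Oit3 (-1.03, SE 0.34, adjusted p = 0.0348), which overlapped and did not pass without CD Vec replicate 1 (-0.68, adjusted p = 0.150) or 3 (-1.0), or without CD Onco replicate 2 (-0.90) or 3 (-0.99), with Kdr at -0.96 (adjusted p = 0.0526). The sums were 107 to 225, 114 to 183, 138 to 236 and 168 to 224 CPM.

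For stellate cells 2 of 7 rose on CD, Acta2 (2.91, SE 0.69, adjusted p = 0.00686, and 2.18 without CD Onco replicate 1 or 3.53 without CD Vec replicate 3) and Reln (1.53, SE 0.29, adjusted p = 0.00178), and 3 fell, among them Lrat, the vitamin A enzyme of quiescent cells (-1.42, SE 0.29, adjusted p = 0.00293). The sums were 223 to 290.0, 195 to 318, 240.0 to 275 and 228 to 303 CPM. For cholangiocytes 1 of 4 rose, Krt19 (2.91, SE 0.32, adjusted p = 7.05e-05), with Epcam at -0.50 and Sox9 at -0.41, and sums of 7.71 to 8.59, 10.1 to 13.5, 8.15 to 10.5 and 5.68 to 6.30 CPM. For hepatocytes 1 of 8 rose, Glul (3.10, SE 0.22), and 2 fell, among them Cyp2f2 (-4.39, SE 0.23), with Serpina1e at -1.06 (adjusted p = 0.289). Their sums were 105389 to 116739, 97062 to 105937, 97431 to 119249 and 79908 to 105184 CPM. The part of these cell types in the macrophage results was not tested.

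The run term lowered most of these counts. With it, 945 of all genes were called on CD. Of the 9 monocyte genes 3 rose, of the 15 pan-macrophage genes 3, of the 11 lipid-associated genes 6 and of the 10 uptake genes 1. The list medians were 2.01, 0.96, 2.32 and 0.51, against 2.45, 1.25, 2.87 and 0.79 without it. Between diets in oncogene livers 618 of all genes were called with it. There 1 of the 9 monocyte genes was lower (7 without it), although their median was -1.65, against -1.66 without it. Of the 15 pan-macrophage genes 0 were lower (3 without it, with Lyz2 at -0.70, Fcgr1 at -1.30 and Itgam at -0.52, and a list median of -0.38 against -0.36), and of the 11 lipid-associated genes 5 were (8 without it), with a median of -1.38 against -2.10 for the latter. For the interaction 3 of the 11 lipid-associated genes were called below 0, against 8 without it, and 53 of all genes were with it. Of the 35 genes called on CD among the 3 named per list, 16 were still called: Il18bp, Lyz2, Fcgr1, Lpl, Mmp12, Cd63, F13a1, Bmp2, Gdf2, Mfge8, Il1rn, Retnla, Hexa, Krt19, Glul and Cyp2f2. The other 19 did not pass, namely Id3 (-1.37), Itgam (0.63), Chil3 (2.84), Ccl2 (2.45), Bmp10 (-4.01), Gas6 (1.46), Axl (0.80), Nos2 (3.12), Npc2 (0.83), Tfe3 (0.61), S100a8 (0.98), S100a9 (0.81), Cd8a (3.20), Cd4 (-2.39), Clec4g (-0.92), Oit3 (-1.09), Acta2 (0.77), Reln (1.26) and Lrat (-1.55). Folr2, Slc40a1, Nr1h3, Tgfb1, Apoe, Lamp1 and Acp5 did not pass on CD either, nor did Mertk on LPD (0.94, adjusted p = 0.0871). The 3 members called on CD were still called with it. The part of the runs in these results was not tested beyond that term and the values within the mixed run.

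Genes most alike in pattern to 4 of the markers were listed by Pearson's r of log2 CPM over the 12 libraries, as a description. All 12 libraries enter each value, with their groups and runs. Clec4f was followed most closely by Siglece (0.866), Timd4 (0.851), Lilra5 (0.850), Flcn (0.845) and Vsig4 (0.842), so 2 of the 5 were resident markers themselves. Csf1r was followed by Tspan15 (0.963), Sdc3 (0.954), Ptgs1 (0.947), C1qb (0.941) and Themis2 (0.936). Trem2 was followed by Tmem176a (0.975), Tmem176b (0.966), Cstb (0.956), Capns1 (0.949) and Gpx7 (0.948), and Gpnmb by Fem1b (0.893), Isg15 (0.891), Tfrc (0.886), Cnep1r1 (0.886) and Phf11d (0.884). Among the members, Cd5l and Adgre1 were the closest pair (0.97), followed by Adgre1 and Csf1r (0.93), whereas Clec4f and Trem2 stood at -0.29. Of the Gpnmb counts, 540 were in CD Onco replicate 3, which enters each of its correlations.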

How the data were processed

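Liver RNA was sequenced from 12 mice, 3 per group. The authors aligned reads to mm10 with HISAT2 and deposited raw read counts per gene, made with featureCounts, under Entrez numbers. Versions and the strand setting are not given in the sources used here, and the labels name an rRNA depletion kit where the methods name mRNA selection. Column names call chow HPD. All 12 columns were matched to samples by the labels. Symbols came from RefSeq GRCm38.p6 and GENCODE for 93.1% of 27179 genes. Libraries held 19476209 to 31990267 counts.

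The deposited counts were tested with edgeR 4.0.16 (R 4.3.3; filterByExpr, TMM, quasi-likelihood F test with robust fitting) in 1 model of the 4 groups. P-values were adjusted by Benjamini-Hochberg over 13947 genes and called at an adjusted p under 0.05, after tests on simulated data. Normalised values are TMM-scaled CPM, per kilobase of the longest principal transcript where genes are compared. Log2 ratios to Csf1r used a prior count of 0.5, log2 CPM a prior count of 2, and the floor was 3 counts per library. Fold-change intervals are 1.96 SE. The alternatives were DESeq2 1.42.0, total-count scaling, no filter, only the groups compared, a replicate block, a term for header runs, other denominators, another prior count, and leaving out each library. Replicate numbers did not pair the samples. Named were all members, the 3 tested genes of each list with the largest absolute log2 fold change on CD, called or not, and the 5 genes most alike in pattern to Clec4f, Csf1r, Trem2 and Gpnmb by Pearson's r among tested genes with a mean of at least 2 CPM. Results for 2 genes of these lists are not reported here. The members and lists were chosen with earlier results of these data known.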

Additional observations from a re-analysis of the deposited data

Results flagged for a closer look

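The effect of the oncogenes differed between LPD and CD for 17 of 65 genes looked at, by the interaction term of the edgeR fit (adjusted p under 0.05), which called 8.91% of all genes. Of the 65, 45 were taken for the largest absolute fold change on CD within a list, a value that enters the interaction, so nothing is read from the count. Values are log2 differences, the change on LPD minus the change on CD. Trem2 was the single member among them, at -2.52. In the pan-macrophage, lipid-associated, monocyte and uptake lists, Lyz2 stood at -1.09, Lpl at -2.89, Mmp12 at -3.12, Cd63 at -3.18, F13a1 at -3.75 and Mfge8 at -1.62. The cells that made this RNA are not known from bulk liver. Retnla stood at -7.74, a fitted value that rests on a group with no counts. The niche ligands Bmp2 and Gdf2 were at 1.64 and 1.22, and Slc40a1, named after its values were seen, at 0.94. Among markers of other cells, S100a8 was at -3.16, S100a9 at -2.47, Krt19 at -3.10, Glul at -1.39, Clec4g at 1.18 and Cyp2f2 at 4.46.

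With the run term 4 of the 17 passed (Lpl, Cd63, Krt19 and Cyp2f2) and 13 did not, among them Trem2 (-2.69, adjusted p = 0.0679). In all 12 fits without 1 library 8 passed (Lpl, Cd63, F13a1, Mfge8, Krt19, Glul, Clec4g and Cyp2f2). Bmp2 passed in 11 of these fits, Trem2 in 9, S100a8 in 8, Mmp12 in 7, Gdf2 in 6, S100a9 in 5, Retnla in 4, Lyz2 in 3 and Slc40a1 in 2. All 17 have the CD Onco libraries in common.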

How the results depend on the processing

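The 12 libraries, with 3 mice per group and 4 to 13 counts of Trem2 in CD Vec, limit what can be seen, and values that missed the threshold do not show that groups were alike. Members called on CD were 3, and 6 with total counts only, which added Cd5l, Adgre1 and Csf1r and raised the calls over all genes from 4933 (2603 higher, 2330 lower) to 5674 (4469 higher, 1205 lower), with medians over all genes of 0.28 on CD, 0.12 on LPD and -0.16 for the interaction. On LPD 3 were called with only the groups compared. For the interaction DESeq2 called 2 and the run term 0. With the run term 945 of all genes were called on CD and 618 between diets in oncogene livers. DESeq2 called 9 pan-macrophage genes on LPD where edgeR called 1, and 4 niche genes between diets where edgeR called 2. Without 1 library, members called ranged from 2 to 6 on CD (6 without CD Vec replicate 3, 2 without CD Onco replicate 3), from 0 to 0 on LPD and in Vec, from 1 to 3 between diets in oncogene livers (1 without LPD Onco replicate 1 or 2) and from 0 to 1 for the interaction. Replicate numbers did not pair the samples: the correlations of same-numbered libraries lay between -0.183 and 0.167, and 2 of 18 pairs exceeded 0.1. With the replicate block, Cd5l passed on CD (0.98, adjusted p = 0.0333), Gpnmb did not pass between diets (-3.98, adjusted p = 0.0542; with no filter on low counts, adjusted p = 0.0509), and the counts of members called stayed within 1.5 times. Values near 0 changed sign as follows. With total counts only, Clec4f was 0.26, Marco 0.03 and Siglech 0.10 on CD, and the interactions of Adgre1 and Csf1r were -0.05 and -0.12. With the run term, Clec4f was 0.31 and Csf3r -0.32 on CD. It also gave, in Vec, Timd4 -0.06, Vsig4 -0.01, Marco -0.16, Cd5l -0.15, Cd68 -0.05 and Trem2 0.07, between diets in oncogene livers Epcam 0.75 and Sox9 0.85, and for the interaction Adgre1 -0.14. With the block, Cd5l was 0.03 and Epcam 0.08 between diets in oncogene livers, and the interactions of Adgre1 and Csf1r were -0.01 and -0.02. DESeq2 gave 0.00 for Cd5l in Vec. With Adgre1 as denominator the ratios of Clec4f (-0.90) and Vsig4 (-0.65) passed for injection, and Cd5l was -0.13 for injection and 0.07 for diet. With Cd68 as denominator Cd5l was -0.21 and 0.49. Without 1 library, ranges that crossed 0 were, on CD, Clec4f -0.43 to 0.27, Vsig4 -0.03 to 0.60, Marco -0.89 to 0.02, Csf3r -0.14 to 0.42 and Siglech -0.36 to 0.02, and on LPD Marco -0.57 to 0.94. In Vec they were Clec4f -0.06 to 0.44, Timd4 -0.21 to 0.31, Vsig4 -0.14 to 0.50, Marco -0.02 to 0.72, Cd5l -0.34 to 0.37, Adgre1 -0.59 to 0.47, Cd68 -0.05 to 0.25, Csf1r -0.15 to 0.44, Trem2 -0.63 to 0.14 and Gpnmb -2.12 to 0.48. Between diets in oncogene livers they were Cd5l -0.26 to 0.37, Adgre1 -0.22 to 0.17, Csf1r 0.00 to 0.38, Csf3r -0.39 to 0.35, Cd209a -0.28 to 1.37, Epcam -0.28 to 0.74 and Sox9 -0.62 to 0.22. For the interaction they were Marco -0.31 to 1.48, Cd5l -0.41 to 0.37, Adgre1 -0.54 to 0.53 and Csf1r -0.24 to 0.34, and for the diet ratio Cd5l -0.24 to 0.07. None of these values was called in the fit of all libraries. The causes of these changes were not tested.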
